A study of Homo sapiens with 38 samples.

Results

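The promoters and gene bodies of the 4 Notch receptors (NOTCH1, NOTCH2, NOTCH3, NOTCH4) and the 5 canonical Notch ligands (DLL1, DLL3, DLL4, JAG1, JAG2) were followed through every CUT&RUN library of a study of DPPA2 and DPPA4, a pair of DNA-binding proteins of the early embryo that some lung cancers also express. The members were chosen by name, as all receptors and canonical ligands of the human pathway, and make up 9 of the 19962 protein-coding genes on chromosomes 1 to 22 and X. A promoter was the window of 1500 bp on either side of the canonical start site of GENCODE on hg38, and the gene body was the rest of the annotated gene, where only regions that did not touch the promoter window were counted. CUT&RUN cuts and sequences DNA next to an antibody-bound protein, and each library had been turned by the authors into narrow MACS2 peaks and broader EPIC2 domains, both set against an IgG library and kept here at a false discovery rate under 0.05 and more than 2-fold enrichment.

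The series held 38 libraries, of which 30 carried regions and 8 were IgG controls. Doxycycline-induced cells came from H661 shDPPA4 and H661 shDPPA2+4, bulk-sorted populations of the H661 large cell lung carcinoma line that carry inducible hairpins against DPPA4 or against both genes. They were grown for 7 days with 2 µg/mL doxycycline, and their references were the same populations after 7 days with water. DPPA4 (N-terminal antibody) and RING1B were profiled in both arms, and PCGF1, MTF2 and EP300 in the water arms. Parental H661, which expresses DPPA2 and DPPA4 itself, gave 1 library each for a DPPA2 antibody and for DPPA4 antibodies to the N terminus and to the central region and ab154642. H1299, a lung cancer line without its own DPPA2 and DPPA4, carried inducible Flag-DPPA2 and V5-DPPA4, and all 12 of its libraries came from 7 days of 2 µg/mL doxycycline, in 2 replicates for each of DPPA2, Flag monoclonal, Flag superclonal, DPPA4 N-terminal, DPPA4 ab154642 and V5 antibodies. The labels did not say whether replicates were separate cultures, so the spread between them may be technical, and no library from a line with a non-targeting hairpin was analysed here, so that hairpin and doxycycline cannot be told apart. The files hold no expression values, so neither the lines' marker genes nor the RNA of DPPA2 and DPPA4 could be checked. Over all libraries the number of domains ran from 4904 to 105640, of narrow peaks from 12 to 50414 and of reads in domains from 48262 to 6850681.

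The Notch pathway carries signals between touching cells. A Delta-like (DLL) or Jagged (JAG) ligand on 1 cell binds a Notch receptor on its neighbour, ADAM and gamma-secretase proteases then cut the receptor, and its freed intracellular part joins RBPJ and MAML proteins on DNA to switch on repressors of the HES and HEY families. In the lung the pathway balances secretory, ciliated and neuroendocrine cell fates, and DLL3 is known as a surface protein of neuroendocrine lung tumours. RING1B and PCGF1 are subunits of Polycomb repressive complex 1, MTF2 brings Polycomb repressive complex 2 to CpG-rich DNA, and EP300 is a histone acetyltransferase of active promoters and enhancers.

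The promoters differed in their density of CG dinucleotides, and 5 are shown because they span the outcomes described next. The 250 bases upstream of the RefSeq start are given 5′ to 3′ on the gene's strand from RefSeq's GRCh38.p14 table, which matched 7 of the 9 members by symbol (all but DLL1 and DLL3), with each CG in capitals. NOTCH1 (chr9:136546049-136546298, minus strand), NOTCH3 (chr19:15200996-15201245, minus), NOTCH4 (chr6:32224068-32224317, minus), DLL4 (chr15:40929090-40929339, plus) and JAG2 (chr14:105168777-105169026, minus) read:
NOTCH1: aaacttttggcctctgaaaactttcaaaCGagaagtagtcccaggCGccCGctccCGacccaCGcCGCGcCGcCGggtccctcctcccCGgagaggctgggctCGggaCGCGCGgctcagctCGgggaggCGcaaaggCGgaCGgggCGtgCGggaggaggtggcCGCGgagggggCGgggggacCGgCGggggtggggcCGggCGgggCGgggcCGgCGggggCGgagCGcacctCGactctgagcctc
NOTCH3: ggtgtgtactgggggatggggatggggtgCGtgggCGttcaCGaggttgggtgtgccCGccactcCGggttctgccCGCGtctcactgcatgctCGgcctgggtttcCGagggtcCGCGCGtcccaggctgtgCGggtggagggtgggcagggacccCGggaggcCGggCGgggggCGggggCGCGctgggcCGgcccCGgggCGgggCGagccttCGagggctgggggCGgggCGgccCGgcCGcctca
NOTCH4: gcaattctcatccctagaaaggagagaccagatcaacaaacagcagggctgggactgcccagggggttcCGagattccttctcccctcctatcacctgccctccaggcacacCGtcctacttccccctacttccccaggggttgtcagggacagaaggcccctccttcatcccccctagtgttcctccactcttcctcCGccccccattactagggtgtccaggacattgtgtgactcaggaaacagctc
DLL4: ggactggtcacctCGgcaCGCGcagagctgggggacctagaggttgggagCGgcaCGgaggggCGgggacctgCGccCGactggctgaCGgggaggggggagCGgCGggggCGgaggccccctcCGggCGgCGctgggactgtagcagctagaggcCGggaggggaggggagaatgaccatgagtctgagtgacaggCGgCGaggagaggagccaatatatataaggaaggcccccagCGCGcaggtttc
JAG2: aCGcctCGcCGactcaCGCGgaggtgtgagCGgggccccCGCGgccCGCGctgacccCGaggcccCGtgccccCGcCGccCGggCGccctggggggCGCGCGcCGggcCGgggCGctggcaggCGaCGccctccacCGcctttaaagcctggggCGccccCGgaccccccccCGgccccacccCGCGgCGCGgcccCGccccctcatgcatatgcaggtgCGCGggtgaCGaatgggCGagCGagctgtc
The CG motif, which reads the same on both strands and cannot overlap itself, occurred 33 times in the NOTCH1 stretch, 28 times in NOTCH3, 3 times in NOTCH4, 20 times in DLL4 and 38 times in JAG2. Of the 35116 promoters in the table, 8.15% held at least as many as NOTCH1, 15.9% as NOTCH3, 77.1% as NOTCH4, 32.4% as DLL4 and 3.28% as JAG2. Over the 500 bp on either side of the canonical start, 6 members (NOTCH1, NOTCH2, DLL1, DLL4, JAG1, JAG2) were CpG-rich (GC above 55% and an observed to expected CG ratio above 0.75). NOTCH3 (ratio 0.70) and DLL3 (0.68) were intermediate, and NOTCH4 was CpG-poor (0.14). The reads of NOTCH2 are uncertain, since the NOTCH2NL genes carry near-identical copies of its 5′ part.

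In parental H661, 7 of the 9 promoters carried MACS2 peaks of both DPPA2 and DPPA4 (N-terminal), among them all 5 ligands and the receptors NOTCH1 and NOTCH2, while NOTCH3 and NOTCH4 carried neither. Of all 19962 promoters, 39.2% carried both. With the window at the annotated 5′ end of each gene, 5 members carried both, without NOTCH2 and DLL1 (37.6% of all promoters). By CpG class at the canonical start, the counts were 6 of 6 CpG-rich members (61.2% of such promoters), 1 of 2 intermediate members (40.4%) and 0 of 1 CpG-poor member (5.11%).

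The highest peak at NOTCH1, the receptor most studied in lymphoid cancers, reached 10.8-fold over IgG with the DPPA2 antibody, 5.49-fold with the N-terminal and 11.2-fold with the ab154642 DPPA4 antibody. NOTCH2, a receptor needed in kidney and liver development, reached 8.24-fold, 7.87-fold and 6.6-fold with the same antibodies. Both receptor promoters thus had a peak with each of these 3 antibodies. Among the ligands, DLL4, the Delta-like ligand of sprouting vessels, stood at 11.2-fold, 11.4-fold and 10.6-fold. DLL3, which acts mainly inside the same cell and dampens the signal, stood at 9.29-fold, 9.14-fold and 8.59-fold. For both ligands the values of the 3 antibodies lay close together. DLL1, a ligand of somite and gut development, had 9.62-fold, 6.98-fold and 6.22-fold, JAG1, the ligand mutated in Alagille syndrome, 4.12-fold, 11.4-fold and 7.46-fold, and JAG2, a ligand of limb and airway development, 7.47-fold, 6.98-fold and 12.4-fold. The order of the members thus depended on the antibody, with JAG1 lowest for DPPA2 and level with DLL4 for the N-terminal DPPA4 antibody. With 1 library per antibody these orders have no replicate check.

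**Figure D1:**
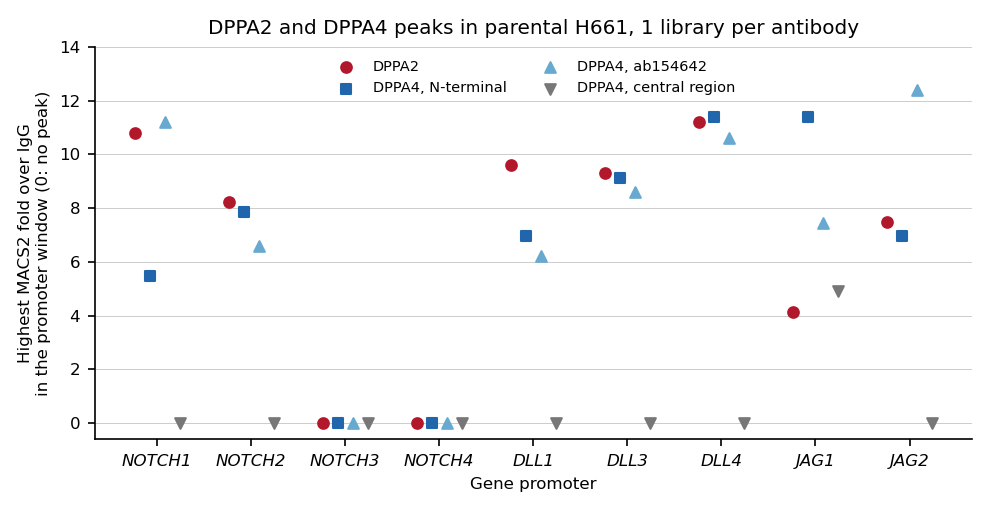
Highest MACS2 fold over IgG (y axis, 0 where there is no peak) at each Notch promoter (x axis) in parental H661, with 1 point per antibody and 1 library per antibody. NOTCH3 and NOTCH4 sit at 0 for all 4 antibodies, and the central-region DPPA4 antibody has a peak only at JAG1 (4.9-fold).

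The 4 antibodies differed in how much of the genome they marked. DPPA2 peaks covered 46.4% of all promoters, the N-terminal DPPA4 antibody 47% and ab154642 50.6%, with 7 of 9 Notch promoters each, while the central-region antibody marked 5.47% of promoters and 1 of 9 members, JAG1 (4.9-fold). The DPPA2 library had been set against another IgG library than the 3 DPPA4 libraries.

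In H1299, where both proteins came from transgenes, 4 of the 9 promoters had EPIC2 domains of DPPA2 and of DPPA4 (N-terminal) in both replicates, against 30.6% of all promoters. They were NOTCH1, DLL1, JAG1 and JAG2, 4 of the 6 CpG-rich members (49.4% of CpG-rich promoters). The counts were 0 of 2 for the intermediate members (30.6%) and 0 of 1 for the CpG-poor one (2.66%). Levels are given as the percentile of a promoter's domain read density among all promoters of the same library, with 0 where there was no domain. IgG reads were not subtracted from this density, so a high percentile need not go with a high fold over IgG.

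DLL1 stood highest. Its percentiles in replicates 1 and 2 were 97.3 and 99.9 with the DPPA2 antibody, 95.6 and 99.9 with Flag monoclonal, and 94.1 and 99.6 with Flag superclonal. With the DPPA4 antibodies they were 90.7 and 99.2 (N-terminal), 94.2 and 98.9 (ab154642), and 95.5 and 99.9 (V5). All 12 libraries thus placed DLL1 above 90% of promoters, and replicate 2 was higher with each of the 6 antibodies. Replicate 2 had fewer domains with every antibody (4904 to 22998, against 24177 to 42537 in replicate 1), so more promoters stood at 0 below it. JAG1 also had a domain in 12 of 12 libraries, between 87.2 and 97.4 with a median of 90. NOTCH1 and JAG2 had one in 11 of 12, and the missing library was the same for both.

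That library, replicate 2 of the Flag monoclonal antibody, held 4904 domains and 12 narrow peaks, the fewest in the series, with domains at 5.28% of promoters and at 2 of 9 members (DLL1 and JAG1). Its percentiles for these were 99.9 and 97.4. Outside it, NOTCH1 lay between 86.9 and 98.3, and JAG2 between 80.4 and 97.9. The spread of NOTCH1, JAG1 and JAG2 in these libraries overlapped throughout, so their order was not resolved.

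DLL4 had weaker domains in 10 of 12 libraries. With the DPPA2-directed antibodies its percentiles in replicates 1 and 2 were 58 and 70.2 (DPPA2), 54.7 and 0 (Flag monoclonal), and 58.9 and 69.1 (Flag superclonal). With the DPPA4-directed antibodies they were 56.4 and 0 (N-terminal), 49.2 and 57.8 (ab154642), and 64.9 and 62.4 (V5). Both zeros fell in replicate 2, and no library placed DLL4 as high as JAG1. NOTCH2 had domains in all 6 libraries of replicate 1 (44 to 53.4) but in 1 of 6 of replicate 2 (V5, 61.7). DLL3 had a domain only in V5 replicate 1, of 300 bp and 8 reads (35.7), and NOTCH3 and NOTCH4 had none in 12 libraries. By percentile, DLL3 was the member with the widest gap between the lines. An EPIC2 domain lay on it in all 8 DPPA2 and DPPA4 libraries of the H661 lines and in the 10 libraries of the other proteins. Its DPPA percentiles were 99.5 to 99.7 in the 4 parental and 89.4 to 95.9 in the 4 hairpin-line libraries. The parental ones include the central-region antibody, which had no MACS2 peak at DLL3. In parental libraries its EPIC2 fold over IgG was 3.07 to 9.33, beside 5.94 to 10.8 at DLL4 and 31 to 73.8 at JAG2. JAG2 stood at lower percentiles there (71.1 to 93.2). The lines differ in more than the source of the DPPA proteins, and the cause of the gap was not tested.

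**Figure D2:**
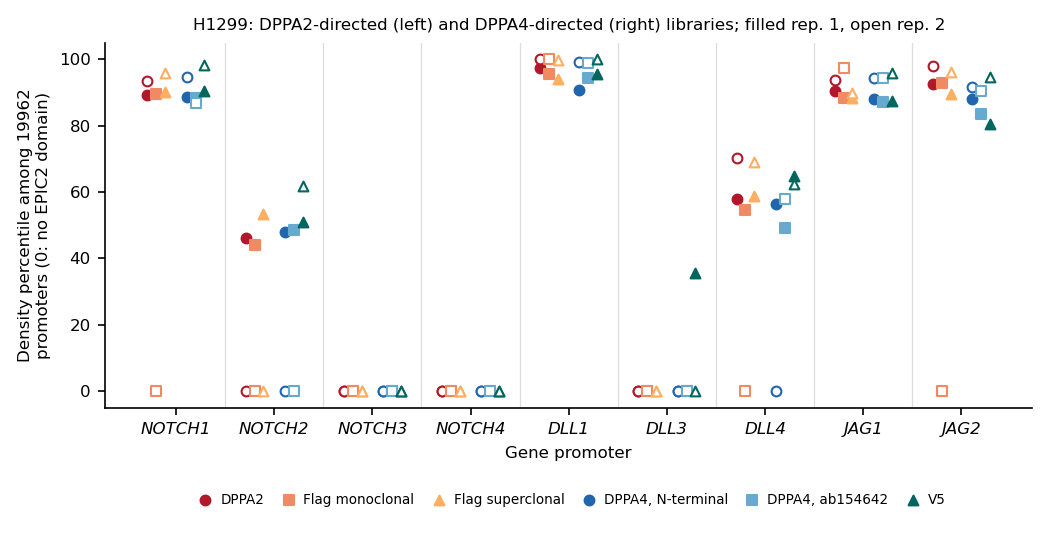
Percentile of domain read density among 19962 promoters (y axis, 0 where there is no domain) at each Notch promoter (x axis) in the 12 H1299 libraries, with DPPA2-directed antibodies on the left of each gene, DPPA4-directed ones on the right, filled points for replicate 1 and open points for replicate 2. DLL1 and JAG1 are high in 12 of 12 libraries, NOTCH3 and NOTCH4 are at 0 in all 12, and Flag monoclonal replicate 2 is at 0 for NOTCH1, DLL4 and JAG2.

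Because Flag marks DPPA2 and V5 marks DPPA4 in these cells, the 6 DPPA2-directed libraries could be compared with the 6 DPPA4-directed ones. Each group held 3 antibodies in 2 replicates, treated as samples of 1 target. The DPPA2, Flag monoclonal and V5 libraries had been called against a different IgG library than Flag superclonal and the 2 DPPA4 antibodies. Both groups thus mixed the IgG libraries, in unequal shares. The 6 libraries are not known to be independent cultures. No member promoter passed the test. JAG1 averaged 91.3 ± 3.57 in DPPA2-directed and 91.1 ± 3.95 in DPPA4-directed libraries (SD, n = 6 each), a difference of 0.2 percentile points (exact two-sided permutation p = 0.948). DLL1 averaged 97.7 ± 2.49 in DPPA2-directed and 96.4 ± 3.6 in DPPA4-directed libraries (exact permutation p = 0.463). NOTCH1 averaged 76.3 ± 37.5 in DPPA2-directed and 91.2 ± 4.4 in DPPA4-directed libraries (exact permutation p = 0.58), with the wide spread set by the Flag monoclonal replicate at 0. For NOTCH2, DLL4 and JAG2 the exact permutation p-values were 0.416, 0.649 and 0.97. Across the 12619 promoters with a domain in at least 3 libraries, 0 passed a Benjamini-Hochberg adjusted p under 0.05 (0%), and the lowest adjusted p among the 6 members tested was 0.966. With 924 splits the smallest p the test can give is 0.00216, and 697 promoters (5.52%) had an unadjusted p under 0.05, none of them a member. Reads in domains ran from 1010261 to 3025428 in replicate 1 and from 48262 to 801969 in replicate 2. For 1 promoter to pass, 547 would have had to sit at the smallest p, and 48 did, so the 0 says little about differences between the antibodies.

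In the water arms of the hairpin lines, RING1B and MTF2 lay on most Notch promoters, as they did on most CpG-rich promoters. Both had domains in both lines at 7 of 9 promoters, all but NOTCH3 and NOTCH4, against 57.6% and 56.4% of all promoters. Among CpG-rich members each was at 6 of 6, against 84.7% and 81.6% of CpG-rich promoters. PCGF1 had domains in both lines at 4 of 9 (NOTCH1, DLL1, DLL3, DLL4), against 16% of all promoters. It was at 3 of 6 CpG-rich members, against 26% of CpG-rich promoters. EP300 had domains in both lines at 4 of 9 (NOTCH1, DLL3, DLL4, JAG2), against 45.6% of all promoters. It was at 3 of 6 CpG-rich members, against 68.1% of CpG-rich promoters. Line by line, PCGF1 was at 4 of 9 members in shDPPA4 (25.7% of promoters) and at 6 of 9 in shDPPA2+4 (24.3%), which added JAG1 and JAG2.

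DLL3 and DLL4 stood highest of the members for RING1B and PCGF1, but not for MTF2. For PCGF1, DLL3 stood at percentiles of 99.6 in shDPPA4 and 99.5 in shDPPA2+4, and DLL4 at 96.1 and 99.7. For RING1B, DLL3 stood at 98.9 and 99.3 and DLL4 at 96.2 and 98.7. Both promoters lay above 95% of all promoters for both Polycomb subunits in both lines, and DLL4 was the only member with a narrow MACS2 peak of PCGF1 in both (6.47-fold and 8.63-fold). The PCGF1 libraries had been called against another IgG library than RING1B, MTF2 and EP300 of the same line. For EP300, DLL3 stood at 97.7 in both lines and DLL4 at 87.8 and 83.9. For MTF2, DLL3 stood at 90.6 in shDPPA4 and 89.1 in shDPPA2+4, and DLL4 at 78.9 and 74.7. Above a log2 fold of 2, neither was called in both lines for MTF2 or EP300. DLL3's EPIC2 fold over IgG was at most 3.9 in the 6 PCGF1, MTF2 and EP300 libraries. Above that limit DLL3 was thus not called for PCGF1 in either line, despite its percentiles. JAG1 stood highest for MTF2 (96.4 in shDPPA4 and 97.1 in shDPPA2+4), with RING1B at 89.8 and 91.3 and an EP300 domain in shDPPA2+4 only (51.2). NOTCH1 was lower for RING1B (81.4 and 77.1) and MTF2 (50.3 and 54.4) than these ligands. NOTCH2 stood at 46.2 and 40.7 for RING1B and had no PCGF1 domain.

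**Figure D3:**
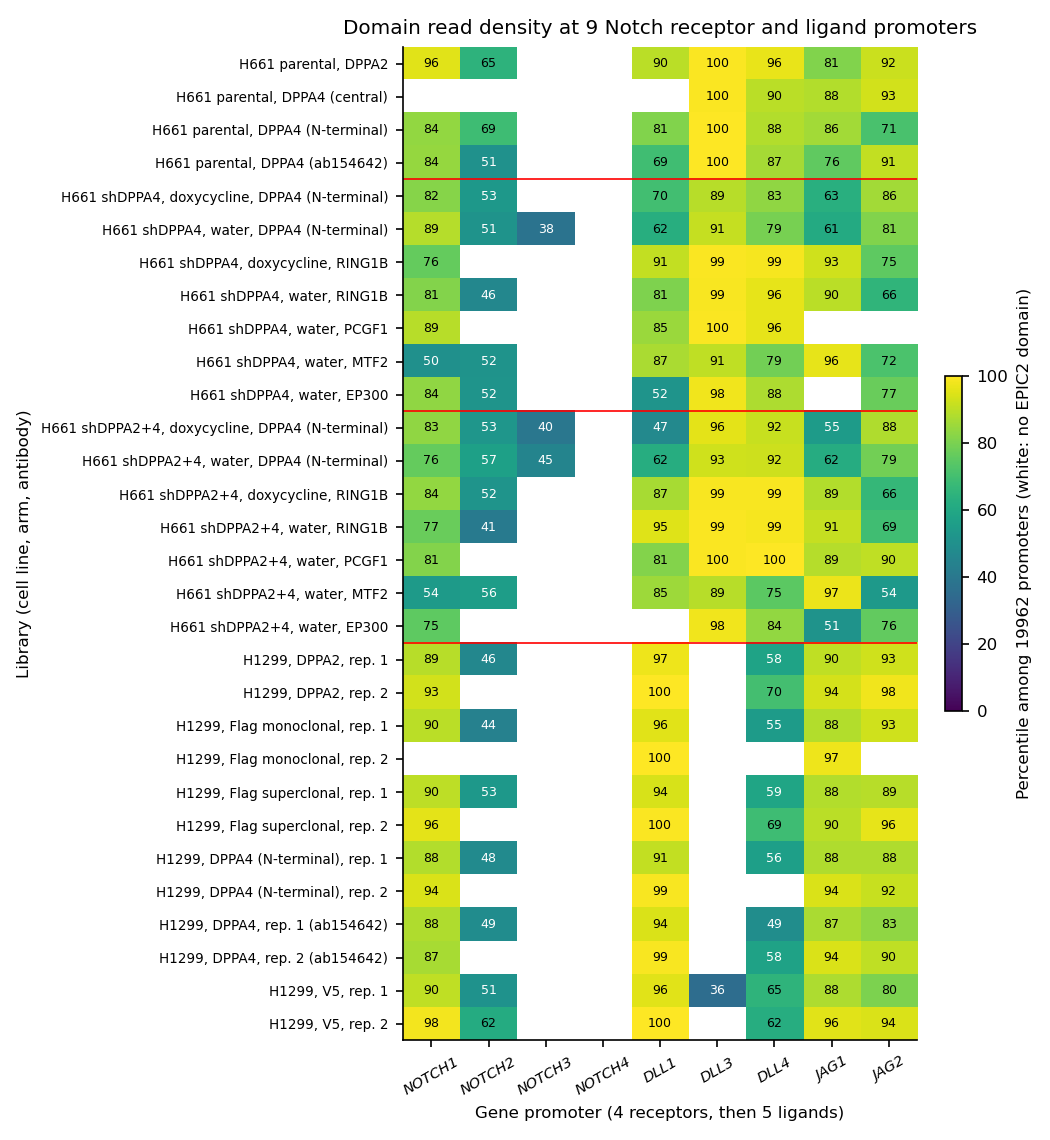
Percentile of EPIC2 domain read density among 19962 promoters (colour and printed number, white where there is no domain) for the 9 Notch promoters (columns) in the 30 libraries (rows), with red lines between cell lines. NOTCH4 is empty in 30 of 30 libraries, NOTCH3 is filled only with the N-terminal DPPA4 antibody in hairpin lines, and DLL3 is filled in 18 of 18 H661 libraries and 1 of 12 H1299 libraries.

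NOTCH3, a receptor of vascular smooth muscle, had a promoter region only with the N-terminal DPPA4 antibody in the hairpin lines. In water its peaks reached 7.24-fold in shDPPA4 and 5.97-fold in shDPPA2+4, at domain percentiles of 37.9 and 45.2. NOTCH4, an endothelial receptor inside the major histocompatibility complex, had no promoter region in any of 30 libraries by either caller.

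DPPA4 (N-terminal) read density was lower with doxycycline than with water at most Notch promoters of both lines. The values are reads per kb of promoter window inside domains, scaled to the size of the IgG library that both arms of a line share, and the log2 of doxycycline over water is given with a 95% counting interval. Each arm was 1 library, so the interval covers counting error only and no test was possible. It was computed from all reads of the domains that touch the window, also those outside it, so it can be too narrow for the window. Beyond a log2 of -0.5 a value was counted as lower.

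In shDPPA4, NOTCH1 stood at 15.6 with doxycycline against 41.5 with water (log2 -1.42, interval -1.77 to -1.08). NOTCH2 stood at 3.81 with doxycycline against 12.7 with water (log2 -1.74, interval -2.52 to -1.03). Neither interval reached 0, and the NOTCH3 domain, 5.52 with water, was not called with doxycycline. The ligands stood at 9.21 with doxycycline against 19.1 with water for DLL1 (log2 -1.05), 22.3 against 45 for DLL3 (log2 -1.02), 16.7 against 31 for DLL4 (log2 -0.90), 6.82 against 18.2 for JAG1 (log2 -1.41) and 18.8 against 32.3 for JAG2 (log2 -0.78). All 7 members with a domain in both arms were lower by the limit of -0.5, as were 91.4% of all promoters, and their median of -1.05 lay beside -1.22 over all 11318 promoters compared. The members' median was thus nearer to 0 than that of all promoters, with 3 of 7 members below the median of all.

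In shDPPA2+4 the members spread more. NOTCH3 stood at 1.62 with doxycycline against 11.2 with water (log2 -2.79, interval -3.95 to -1.77), and DLL1 at 4.24 with doxycycline against 23.9 with water (log2 -2.50, interval -3.05 to -1.97). Only 1.54% of promoters lay below NOTCH3 and 2.77% below DLL1. DLL1's domains covered 32.6% of the window with doxycycline against 86.7% with water, while its highest narrow peak was 6.73-fold with doxycycline against 6.33-fold with water. JAG1 stood at 7.16 with doxycycline against 23.7 with water (log2 -1.73), NOTCH2 at 6.5 against 19.4 (log2 -1.58), DLL4 at 35.1 against 65 (log2 -0.89) and NOTCH1 at 23.5 against 37.7 (log2 -0.68). DLL3 lay just inside the limit, at 46.3 with doxycycline against 66.4 with water (log2 -0.52), and JAG2 just outside it, at 29 with doxycycline against 40.9 with water (log2 -0.50). In all, 7 of 8 members were lower, as were 91.8% of all promoters, with medians of -1.23 over the members and -1.06 over all 12178 promoters. These directions depend on the depth scaling: without it 4 of 8 members stood above 0 in shDPPA2+4 (NOTCH1 at log2 0.26, DLL3 at 0.42, DLL4 at 0.06 and JAG2 at 0.45), and the median of all promoters moved to -0.11 in this line and to -2.06 in shDPPA4.

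**Figure D4:**
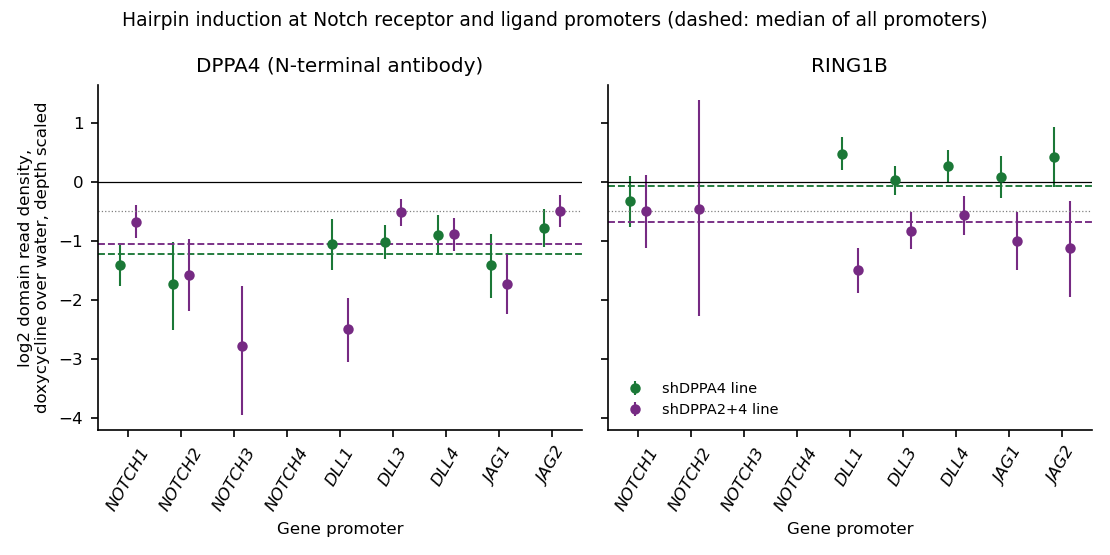
log2 domain read density with doxycycline over water (y axis, depth scaled) at each Notch promoter (x axis) for DPPA4 (left) and RING1B (right), with the shDPPA4 line in green, the shDPPA2+4 line in purple, bars for the 95% counting interval, dashed lines for the median of all promoters and a dotted line at -0.5. DPPA4 values lie below 0 for every member drawn, with NOTCH3 and DLL1 lowest in shDPPA2+4, and RING1B values lie between -0.33 and 0.47 in shDPPA4 and below 0 in shDPPA2+4.

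By domain read density, RING1B with doxycycline was at or above the water level at the 5 ligands in shDPPA4 and below it in shDPPA2+4, a contrast that the narrow peaks did not show. In shDPPA4 no member with a domain in both arms was lower by the limit (0 of 6, against 14.6% of all promoters) and none was higher by 0.5 (0 of 6, against 15.1%), with medians of 0.17 over the members and -0.07 over all 12226 promoters. DLL1 had the highest value, 20.8 with doxycycline against 15 with water (log2 0.47, interval 0.20 to 0.75). JAG2 followed (0.41, interval -0.09 to 0.93), then DLL4 (0.27, -0.00 to 0.54) and JAG1 (0.08, -0.27 to 0.43). DLL3 (0.03, -0.22 to 0.27) and NOTCH1 (-0.33, -0.77 to 0.10) came last. Only the interval of DLL1 lay apart from 0. NOTCH2's small RING1B domain was not called with doxycycline, although a narrow peak was (5.68-fold with doxycycline against 7.34-fold with water). Measured by the fold of the highest narrow peak, the members' median in shDPPA4 was -0.37 instead of 0.17, and all 5 ligands had the same sign in both lines. These log2 values were -0.90 in shDPPA2+4 and -0.08 in shDPPA4 for DLL1, -1.38 and -0.51 for DLL3, 0.42 and 0.05 for DLL4, -1.44 and -0.92 for JAG1, and -1.15 and -1.13 for JAG2.

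In shDPPA2+4, 6 of 7 members had lower RING1B, against 66.4% of all promoters, with medians of -0.83 over the members and -0.69 over all 9241 promoters. DLL1 again stood at the end of the range, at 9.33 with doxycycline against 26.5 with water (log2 -1.50, interval -1.88 to -1.13), and 7.29% of promoters lay below it. JAG2 stood at 3.77 with doxycycline against 8.25 with water (log2 -1.13), JAG1 at 10.1 against 20.4 (log2 -1.01) and DLL3 at 27.4 against 48.8 (log2 -0.83). DLL4 stood at 26.8 with doxycycline against 39.8 with water (log2 -0.57), and NOTCH1, just inside the limit, at 8.03 against 11.4 (log2 -0.50). NOTCH2 rested on 7 reads with doxycycline and 6 with water (log2 -0.47). Most promoters moved the same way in this library pair, and without depth scaling the medians were -0.14 over the members and 0.00 over all promoters, with NOTCH1 (0.19), NOTCH2 (0.22) and DLL4 (0.12) above 0. The difference between the lines was not tested, since each arm is 1 library.

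Over the gene bodies, the DPPA proteins and the Polycomb and EP300 libraries differed most at NOTCH1 and JAG2. NOTCH1's body held 6 DPPA4 domains with doxycycline against 22 with water in shDPPA4, and 10 with doxycycline against 13 with water in shDPPA2+4. The domains covered 4.39% of the body with doxycycline against 77.2% with water in shDPPA4, and 17.4% with doxycycline against 45.9% with water in shDPPA2+4. JAG2's body held 1 DPPA4 domain with doxycycline against 11 with water in shDPPA4, and 1 against 4 in shDPPA2+4. The share of all 18560 genes with any domain in the body was 29.6% with doxycycline against 50.1% with water in shDPPA4, and 31.6% against 38.2% in shDPPA2+4. In shDPPA4 the doxycycline library of DPPA4 was also the smaller one (a log2 size difference of 0.83), with 1460152 reads in domains against 6624283 with water. Parental H661 without a hairpin, with 668336 reads in domains, had body coverage near the doxycycline arm with the same antibody. It had 4 domains over 4.79% of the NOTCH1 body and 1 over 1.14% of the JAG2 body. The part of depth in the number and cover of domains was not tested. None of the 10 RING1B, PCGF1, MTF2 and EP300 libraries had a domain wholly outside the promoter window in the body of NOTCH1 or JAG2, although the share of genes with one ran from 9.62% to 32.2% in these libraries.

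Domains in the NOTCH1 body were also found in other cells. In H1299, 11 of 12 libraries had them, as did 3 of 4 parental libraries (up to 10, with the DPPA2 antibody). The H1299 domains numbered 83 in replicate 1 (up to 29, in V5) and 22 in replicate 2 (up to 11). The share of all genes with any body domain ran from 6.92% to 39.2% in H1299 and from 11.9% to 32.7% in parental H661. The most shared place was a stretch of 7331 bp in intron 2 (chr9:136525357-136532687), with a highest fold of 9.17. In it 14 libraries had a narrow peak, of which 3 were parental H661, 7 H1299 and 4 DPPA4 libraries of the hairpin lines. The stretch can hold several separate peaks, so these libraries need not share the same position.

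**Figure D5:**
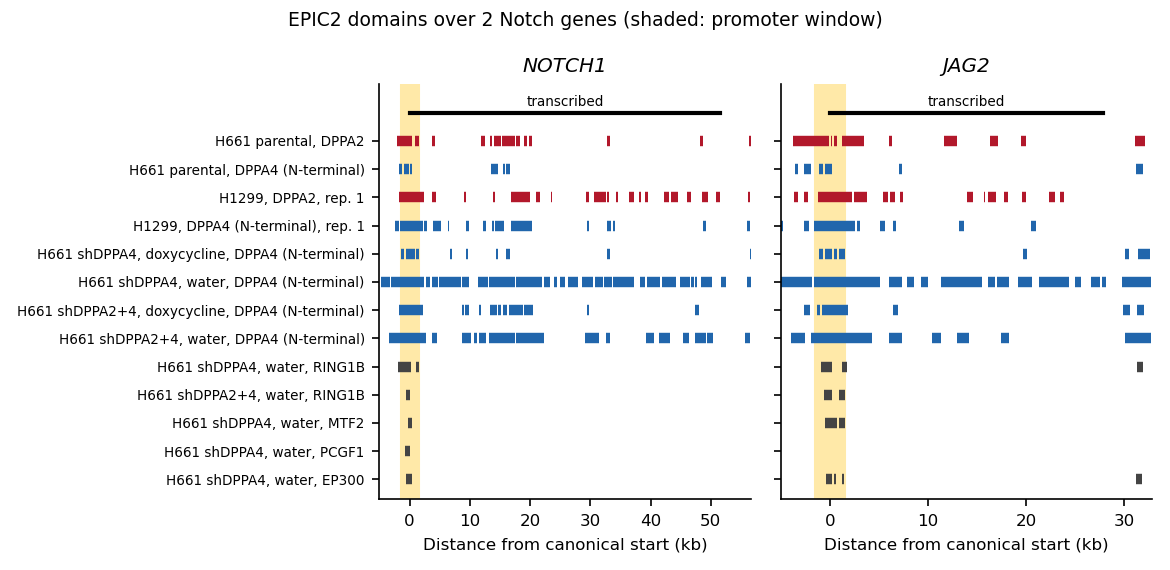
EPIC2 domains over NOTCH1 (left) and JAG2 (right) by distance from the canonical start in kb (x axis) in 13 libraries (rows), with DPPA2 in red, DPPA4 in blue, other proteins in grey, the promoter window shaded and a black bar for the transcribed gene. DPPA4 domains fill 77.2% of the NOTCH1 body in shDPPA4 with water, 4.39% with doxycycline and 4.79% in parental H661 (N-terminal antibody). The grey rows have no domain inside either gene beyond those that touch the promoter window.

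Other members had body peaks at a few places that several proteins shared. At DLL3 a peak over exon 7 (chr19:39506277-39508220) was found in 23 libraries, 6 of them from H1299, where the DLL3 promoter was nearly empty, with a highest fold of 32.1, and 10 of 10 RING1B, PCGF1, MTF2 and EP300 libraries had domains in the DLL3 body. At DLL1 a peak at an alternative start (chr6:170305596-170307396) was found in 19 libraries. Its summit lay 8 bp from an annotated DLL1 start and 201 bp from a start of the neighbouring gene FAM120B, so that it cannot be given to either. Another peak, between the canonical and this start (chr6:170294462-170296562), was found in 17 libraries. Its summit lay 428 bp from an annotated FAM120B start and 4671 bp from the nearest DLL1 start, so it cannot be given to DLL1. At NOTCH4 the last exon (exon 30, chr6:32194867-32197718) had a peak in 20 libraries, up to 31.6-fold, with its summit 566 bp from the start of GPSM3. NOTCH4's own promoter stayed empty in the same libraries. At NOTCH3 a peak over exon 24 (chr19:15177343-15178308) was found in 7 libraries, and at NOTCH2 one in intron 1 (chr1:120058654-120059939) in 9. The bodies of DLL4 and JAG1 had no domain in the 4 parental libraries.

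The wider pathway was read from 6 lists of 37 genes, outside the receptors and ligands. Peaks of both DPPA2 and DPPA4 (N-terminal) lay on 23 of 37 promoters in parental H661, and domains of both in both replicates on 15 of 37 in H1299. The shares of all promoters were 39.2% and 30.6%. Most of the listed genes were CpG-rich, and the shares of CpG-rich promoters were 61.2% and 49.4%. Of the repressors that Notch switches on, 6 of 7 had both in H661 and 4 of 7 in H1299, and HES5 had the highest DPPA2 peak of the lists (31.6-fold), followed by HEY1 (14.7-fold). Of the genes for endocytosis and turnover, 7 of 10 had both in H661 and 3 of 10 in H1299, among them in H661 the ubiquitin ligases DTX2 (10.1-fold) and MIB1 (8.58-fold), and without a DPPA2 peak DTX4 and NEURL1. Of the proteases, 4 of 8 had both in H661 and 3 of 8 in H1299, with PSENEN (9.67-fold) and ADAM17 (7.9-fold) but not APH1A or NCSTN in H661. In the nuclear complex the counts were 3 of 5 in H661 and 4 of 5 in H1299, with MAML1 (9.06-fold) and SPEN (8.26-fold) but not MAML2 or MAML3 in H661. Of the glycosyltransferases that tune ligand choice, 2 of 5 had both in H661 and 1 of 5 in H1299, with LFNG (10.2-fold) and POFUT1 (5.76-fold) but neither MFNG nor RFNG in H661. Of the non-canonical ligands, DLK2 (10.3-fold) had both in H661 and DLK1 (5.1-fold) had DPPA2 alone, and neither had both in H1299.

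Across all 30 libraries, the promoters whose percentiles ran most like NOTCH1's were RSAD1 (Pearson r = 0.975), ALDH3A2 (0.962) and LRRC45 (0.960). For DLL4 they were HOXA7 (0.974), TUBB2B (0.956) and TRMT2B (0.939), out of 16527 genes compared. These correlations are descriptions over libraries that share cell lines and depth.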

How the data were processed

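The authors trimmed reads (Trim Galore 0.6.6), aligned them to hg38 (BWA 0.7.13, SAMtools 1.9), marked duplicates (Picard 2.6.0) and called regions for each library separately against IgG, per the submitters' notes and the study's methods. The deposited EPIC2 domains, in bins of 100 bp, hold the read count of the library and of its IgG, a p-value and FDR, a log2 fold change and a score. The deposited MACS2 peaks hold a score, the fold over local background and −log10 of p and q. Blacklisted regions were not removed here.

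Regions with FDR under 0.05 and fold above 2 on chromosomes 1 to 22 and X were assigned to 19962 GENCODE promoters (1500 bp on either side of the canonical start, any overlap). Parental H661 was read from MACS2 peaks, H1299 and the hairpin lines from EPIC2 domains. Domain reads per kb were averaged over the window. Between arms they were scaled by library size relative to IgG, recovered from the log2 fold and count columns. Counting intervals are exact binomial (95%), use all reads of the touching domains and cover counting error only. Antibodies were compared by an exact permutation test with Benjamini-Hochberg adjustment over 12619 promoters. The test was also run on simulated data with normal noise of capped spread. The real percentiles differ from these, being 0 where no domain was called. Python 3.11.15, numpy 2.4.6, scipy 1.17.1, pandas 2.3.3 and matplotlib 3.10.9 were used.

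The members, pathway lists and tests were chosen with earlier results of these data known. All 9 members were named, and of each of the 6 pathway lists the 2 genes with the highest DPPA2 fold in parental H661 and the first 2 by alphabet without a DPPA2 peak. For the receptor and the ligand with the highest DPPA2 fold, the 3 promoters most correlated over 30 libraries were named. Alternatives changed the caller, fold, FDR, window, overlap, start site, antibody, scaling, replicate and replicate block.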

Additional observations from a re-analysis of the deposited data

Results flagged for a closer look

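Within the DPPA2-directed and the DPPA4-directed H1299 libraries, 13 groups of 6 percentiles were examined for a library far from the others, and 5 gave one. Chance gives about 1 in 20 for independent normal values. These percentiles stand at 0 without a domain, so that rate does not apply to them. Flag monoclonal replicate 2 was at 0 for NOTCH1 (others 89.3 to 95.9), for DLL4 (others 54.7 to 70.2) and for JAG2 (others 89.4 to 97.9). This library had the fewest domains of the series, 4904. DPPA4 N-terminal replicate 2 was at 0 for DLL4 (others 49.2 to 64.9). V5 replicate 1 stood at 35.7 for DLL3 (others 0), from 8 reads. With all others at 0, any value there would have been flagged.

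By domain read density, RING1B with doxycycline over water had opposite signs in shDPPA2+4 and shDPPA4 at all 5 ligands. In shDPPA4 the counting intervals of DLL3, DLL4, JAG1 and JAG2 spanned both signs. The log2 change in shDPPA2+4 minus that in shDPPA4 was -1.98 at DLL1, -0.86 at DLL3, -0.84 at DLL4, -1.08 at JAG1 and -1.54 at JAG2. The median of all promoters was -0.69 in shDPPA2+4 and -0.07 in shDPPA4. By the fold of the highest MACS2 peak all 5 ligands had the same sign in both lines, and with a window of 500 bp on either side DLL3, JAG1 and JAG2 did. The difference was not tested, since each arm is 1 library.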

How the results depend on the processing

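Of the alternatives to the main counts and medians, 57 left them near their value, 19 moved them and 1 reversed one. The 57 include every alternative of the H1299 antibody test, where the count of 0 could hardly have moved. With the central-region DPPA4 antibody, DPPA2 and DPPA4 shared 1 Notch promoter in parental H661 (JAG1), beside 5.36% of all promoters. At the annotated 5′ end they shared 5, without NOTCH2 and DLL1 (37.6% of all). With 500 bp on either side they shared 6, without NOTCH2 (35%). With the other caller the count was 1 in H1299 (DLL1, beside 3.46% of all) and 1 for PCGF1 (DLL4, beside 1.41%). Without replicate 1 the H1299 count was 4 (30.7% of all), and without replicate 2 it was 6 (61.4%). Above a log2 fold of 2, MTF2 lay on 4 promoters (36.9% of all), EP300 on 2 (21.6%) and PCGF1 on 3 (8.34%).

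The medians of doxycycline over water depended on scaling. Without scaling for library size they were -1.89 (DPPA4, shDPPA4), -0.29 (DPPA4, shDPPA2+4), 0.53 (RING1B, shDPPA4) and -0.14 (RING1B, shDPPA2+4). Scaled so that the median promoter did not change, they were 0.17 (DPPA4, shDPPA4, reversed), -0.17 (DPPA4, shDPPA2+4) and -0.14 (RING1B, shDPPA2+4), which removes by construction any change that all promoters share. A window of 500 bp on either side gave -0.68 (DPPA4, shDPPA2+4) and 0.04 (RING1B, shDPPA4). A log2 fold above 2 gave -1.45 (DPPA4, shDPPA4), -0.89 (DPPA4, shDPPA2+4) and -0.54 (RING1B, shDPPA2+4). The fold of the highest MACS2 peak gave -0.77 (DPPA4, shDPPA4), -0.56 (DPPA4, shDPPA2+4) and -0.37 (RING1B, shDPPA4).

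Single promoters changed sign in 31 of 134 values. Under median scaling DPPA4 in shDPPA4 stood at 0.17 (DLL1), 0.21 (DLL3), 0.32 (DLL4) and 0.44 (JAG2), and in shDPPA2+4 at 0.38 (NOTCH1), 0.54 (DLL3), 0.17 (DLL4) and 0.56 (JAG2). Unscaled, DPPA4 in shDPPA2+4 stood at 0.26 (NOTCH1), 0.42 (DLL3), 0.06 (DLL4) and 0.45 (JAG2). RING1B in shDPPA2+4 stood at 0.19 (NOTCH1), 0.22 (NOTCH2) and 0.12 (DLL4) under both. The narrower window put DPPA4 at JAG2 in shDPPA4 at 0.09. The MACS2 fold put DPPA4 at DLL1 at 0.09 and RING1B at DLL4 at 0.42, both in shDPPA2+4. The other 10 were RING1B in shDPPA4, at NOTCH1 (0.02 unscaled, 0.12 in the narrower window, 0.39 by MACS2 fold), DLL1 (-0.08 by MACS2 fold), DLL3 (-0.30 and -0.51), JAG1 (-0.32 and -0.92) and JAG2 (-0.03 and -1.13, narrower window and MACS2 fold). Beyond the scaling, the cause was not tested.

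Between DPPA2-directed and DPPA4-directed H1299 libraries 0 promoters passed under every alternative of the exact permutation test, the replicate block included (0, with 1007 at an unadjusted p under 0.05, smallest possible p 0.005). That count says nothing about stability, since 547 promoters at the smallest p were needed for 1 to pass. Leaving out each library gave 0 to 0 called, with 248 to 1172 at an unadjusted p under 0.05, and the MACS2 fold gave 10. Deviations of libraries with the same replicate number correlated between -0.0425 and 0.344 over 9 antibody pairs. The 3 pairs with the Flag monoclonal antibody were below 0.1 and the other 6 above it, so the numbers were not taken to pair the libraries. With 1 library per arm and shallow replicate 2 libraries, a missing region is not shown to be absent.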
